A study of Bos taurus with 12 samples.

Results

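Chemokines are small secreted proteins that guide leukocytes along a gradient, and each binds 1 or more G protein-coupled receptors on the cells it attracts. Homeostatic ligands such as CCL21 place lymphocytes and dendritic cells within tissues and lymphatic vessels, whereas inflammatory ligands call in neutrophils (CXCL1, CXCL3, CXCL5, CXCL8), monocytes (CCL2, CCL8) or, after interferon, activated T and NK cells (CXCL9, CXCL10, CXCL11). In the endometrium, these proteins take part in defence after breeding or calving and in the accommodation of the conceptus.

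The genes described here are the 50 chemokines and chemokine receptors of a custom bovine array, chosen by their symbol (CCL, CXCL, CX3CL, XCL, CCR, CXCR, CX3CR, XCR or ACKR and a number) in the array's annotation. They comprised 31 ligands and 19 receptors, measured by 106 of the 61333 probes kept, and made up 50 of 26323 transcripts. Their levels were measured in intercaruncular endometrium biopsied on Day 15 of a synchronised estrous cycle, in the horn ipsilateral to the corpus luteum. The 4 old females (OF; 13 to 14 years at the Day 15 biopsies of the study) were nulliparous, and the 4 young females (YF; 4 to 5 years) were primiparous and biopsied over 1 year after calving. All OF and YF were Holstein clones from the cells of a single donor cow, so that they carried 1 genotype, and age and parity cannot be told apart. A further 4 contemporary cows were hybridized with them, of which the submitters set 1 aside (animal 1111) for a divergent phenotype, and 3 are used. Whether these cows were clones, and their age and parity, were not given in the sources used here.

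A level below is the log2 of the processed intensity over the 75th percentile of the array, so that 0 is the brightness of a probe at that percentile and 1 unit is a doubling. Because probes differ in affinity, no result below sets the level of a gene against that of another. In a biopsy, fewer cells of a type and less RNA per cell cannot be told apart. Of the 50 members, 33 were well above background on all 11 arrays, 15 on some of them and 2 (CCR6 and CXCL11) on none.

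Probes are shown for CXCL3 and its neighbours because they are close relatives and a shared stretch can capture both transcripts. The first 30 bases of 1 probe of each are given 5′ to 3′ as the array's annotation gives them, with the longest run shared by CXCL3 and GRO1 in capitals for these, and the longest run that CXCL2 shares with CXCL3 in capitals for CXCL2.
CXCL3, probe 1: gcttgtaaGGCATAATGCCTTGTTTAatgt
GRO1, probe 2: GGCATAATGCCTTGTTTAgtgtgagttatc
CXCL2, probe 2: tttcttgtaaggcacAATGCCTTGTTTcat
GRO1 is the older name of a CXCL1-type ligand, listed under that symbol and therefore not among the 50. The shared run of 18 bases with CXCL3 was the longest between probes of any 2 chemokine or receptor genes on the array, followed by runs of 12 bases, among them those of CXCL2 with CXCL3 and with GRO1. Each probe is 60 bases long. Which part of the transcript a probe lies in is not stated in the annotation.

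Between OF and YF, limma called 0 of the 37 members tested at an adjusted p of 0.05, and 0% of the 19755 transcripts tested. The smallest adjusted p of a member was 0.999 (limma, Benjamini-Hochberg over all transcripts). At an unadjusted p of 0.05, 5 members passed (CXCL3, CXCL9, CXCR2, CCL17 and CCL25), beside 2.42% of all transcripts tested. Of these, CCL17 entered the test only through YF, where it was higher, being above background in 4 YF and 2 OF. In no tested member did the 4 OF lie wholly above or below the 4 YF. Over all transcripts tested, 0.931% lay wholly higher in OF and 0.597% wholly lower. The median log2 difference of the 37 members was 0.10, against 0.01 over all transcripts, with 22 members higher and 15 lower in OF.

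The study's own method, fold change rank ordering statistics (FCROS), ranks the 16 ratios of an OF to a YF and calls transcripts by the mean of their ranks and by a fold change (FC, OF over YF, from arithmetic means) of 1.5. It was run on all 26323 transcripts, dim ones included, and makes no correction for multiple tests. It called 12 of the 50 members, 9 over-expressed and 3 under-expressed in OF, beside 2.88% and 2.06% of all transcripts. The over-expressed members were CCL3, CCL4, CCL11, CCL19, CCL21, CXCL3, CXCL5, CXCR1 and CXCR2, and the under-expressed ones were CCL17, CCL20 and CXCL9. Only 8 of the 12 were bright enough for the limma test, CCL11, CCL19, CCL20 and CCL21 being the other ones. Without OF 2258, 8 members were called, of which 5 were among the 12: CCL17, CCL19, CCL21, CXCL3 and CXCL9. That female stood apart from the other 11 arrays on the first principal component of the transcripts tested between OF and YF, at -125 against -35.5 to 35.1. Its summed signal of 10 epithelial genes was also the lowest of the 8 OF and YF, at 11.9 against 45.0 to 91.3 in the other OF and 22.9 to 83.0 in YF, while its smooth muscle sum, given below, was the highest. The part of this tissue makeup in the values of OF 2258 was not tested.

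**Figure D1:**
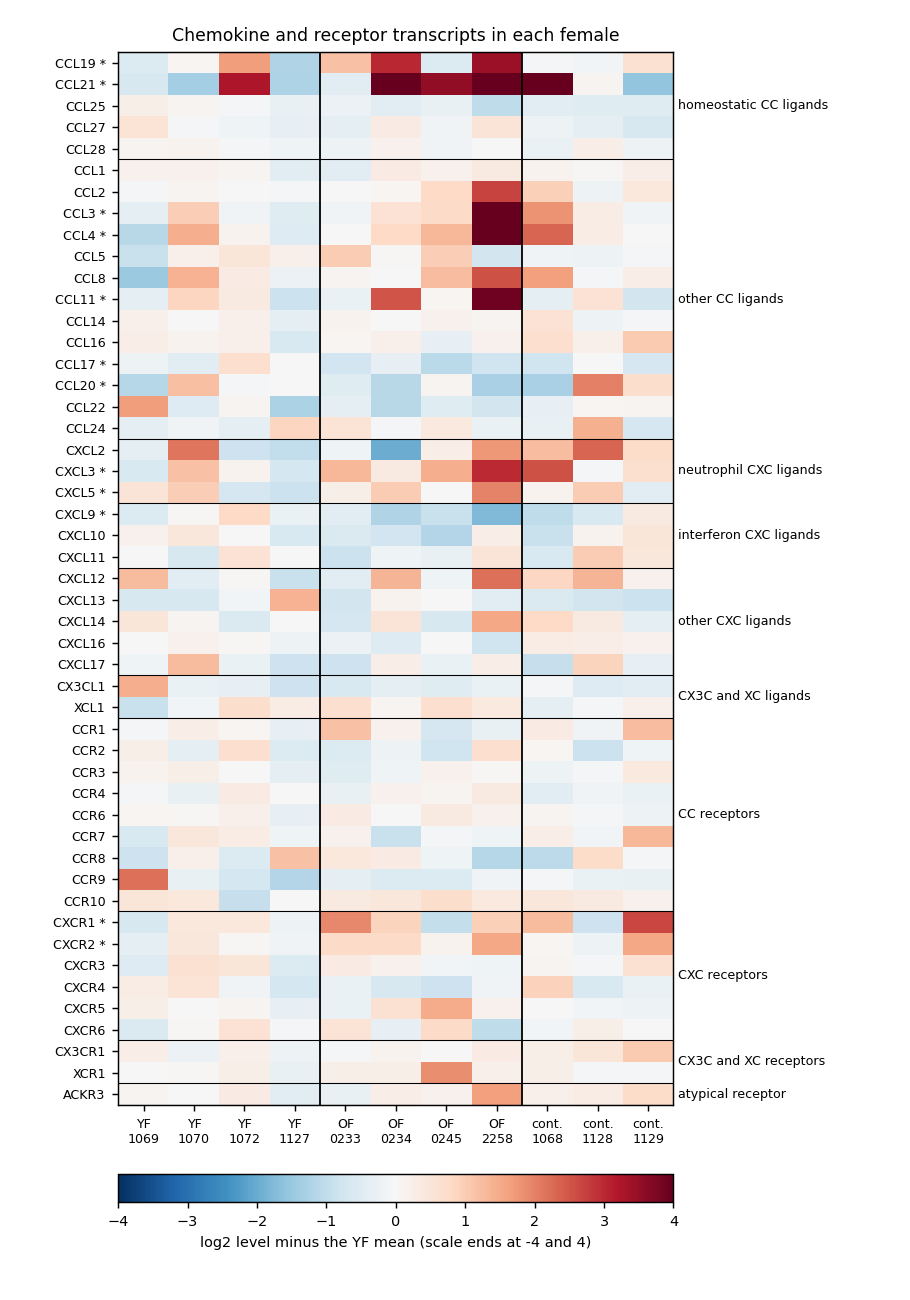
Heat map of the log2 level of 49 chemokine and receptor transcripts (rows, by role) in the 4 YF, 4 OF and 3 contemporary cows (columns), as the difference from the YF mean of each gene. An asterisk marks the 12 members called by FCROS between OF and YF. For CCL3, CCL4, CCL11, CCL19 and CCL21, the highest cell of the row is that of OF 2258.

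CXCL3, a ligand that attracts neutrophils through CXCR2, was above background on every array and called over-expressed by FCROS. Its level was 1.18, 2.96, 1.91 and 1.07 in YF 1069, 1070, 1072 and 1127, and 3.11, 2.13, 3.24 and 4.76 in OF 0233, 0234, 0245 and 2258. Only YF 1070 overlapped with the OF, lying above OF 0234 alone. The mean was 3.31 ± 1.09 (SD, n = 4) in OF and 1.78 ± 0.87 in YF, a log2 difference of 1.53 with a standard error of 0.60 (adjusted p = 0.999, limma), and FC was 3.12. FCROS called CXCL3 whichever of the 8 females was left out, with an FC between 1.88 and 4.58. With array weights, which give each array a weight by its spread, the limma difference was 0.36. The 2 probes of CXCL3, which share 53 of their bases, differed by 1.55 and 1.51 between OF and YF.

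CXCL5, another neutrophil ligand that the array lists as CXCL6, measured -4.47, -3.98, -5.64 and -5.82 in the YF. In the OF it was -4.75, -3.95, -4.99 and -2.996, so that the groups overlapped over most of their range. Its log2 difference was 0.81 (SE 0.55), and FCROS called it in 4 of the 8 sets that left 1 female out, losing it without YF 1072, YF 1127, OF 0234 or OF 2258. CXCL2 measured -6.05 to -3.56 in YF and -7.68 to -3.98 in OF, was above background on 3 arrays of each group and entered no test between them.

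The neutrophil ligands listed under older names were GRO1, with 2 transcripts, and IL8 (CXCL8). The brighter GRO1 transcript measured -2.42, -0.49, -1.55 and -1.78 in YF and -0.35, -1.02, 0.20 and 0.82 in OF, a log2 difference of 1.47 (SE 0.49; adjusted p = 0.999, limma). As for CXCL3, the overlap was made by YF 1070, which lay above OF 0234. The other transcript differed by 0.95 (SE 0.26), and FCROS called both. CXCL8 ranged from -7.23 to -3.58 in YF and from -6.32 to -1.05 in OF, with OF 2258 the highest, and was not called.

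CXCR2 and CXCR1 are the receptors through which neutrophils read these ligands. CXCR2 was -4.48, -3.69, -4.08 and -4.26 in YF and -3.35, -3.35, -3.99 and -2.58 in OF. In OF 0245 alone it lay within the range of the YF. The log2 difference was 0.81 (SE 0.30; adjusted p = 0.999, limma), and it rested unequally on the probes, being 0.40 on the brighter probe and 1.22 on a dim one that exceeded background in 2 OF and no YF. CXCR1, listed on the array as a second CXCR2, measured -7.12, -6.09, -6.06 and -6.71 in YF and -4.58, -5.61, -7.43 and -5.55 in OF. OF 0245 had the lowest value of all 8 females, and the other OF lay above every YF. FCROS lost CXCR2 without OF 0233 or OF 2258, and CXCR1 without YF 1069 or any OF but 0245.

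Markers of granulocytes were listed beside these genes. Of 15 listed, 13 were measured and 11 tested between OF and YF, of which 7 were higher and 4 lower in OF and none passed the limma test. Their summed signal, in units of the 75th percentile, ranged from 17.96 to 36.6 in OF and from 11.1 to 101 in YF. The granule genes CAMP and MMP8 were not well above background on any array. The part of granulocyte number in the values of CXCL3, CXCR1 and CXCR2 was not tested.

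CXCL9, CXCL10 and CXCL11 are interferon-induced ligands that attract T and NK cells through CXCR3, and the first 2 of them had lower means in OF. CXCL9 was -4.34, -3.77, -3.02 and -4.08 in YF and -4.21, -5.02, -4.69 and -5.56 in OF. YF 1069 fell just below OF 0233, and no other values of the 2 groups crossed. The OF mean was -4.87 ± 0.57 and the YF mean -3.80 ± 0.57 (SD, n = 4), with a log2 difference of -1.07 (SE 0.36; adjusted p = 0.999, limma) and an FC of 0.475. FCROS called CXCL9 in all 8 sets that left a female out, with an FC between 0.397 and 0.598. After another background correction (normexp) with quantile normalization, FC was 0.673 and CXCL9 was not called.

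CXCL10 measured -2.21, -1.94, -2.37 and -2.99 in YF and -2.97, -3.13, -3.54 and -2.10 in OF. OF 2258 lay among the YF and OF 0233 just above the lowest of them, and without OF 2258 the log2 difference went from -0.56 to -0.84 and FCROS called the gene. CXCL11 was not above background on any array, so no fold is given. Their receptor CXCR3 spanned -6.03 to -4.88 in YF and -5.65 to -5.14 in OF, with a log2 difference of 0.06 (SE 0.30). Of 17 interferon-stimulated genes measured, 15 were tested, 4 higher and 11 lower in OF, and 0 passed limma. Their median log2 difference was -0.27, and their summed signal spanned 20.3 to 55.5 in OF and 35.0 to 82.9 in YF. The T and NK cell list (16 of 16 measured) spanned 1.95 to 4.81 in OF and 3.44 to 4.09 in YF, with CD4 not above background on any array. The part of T and NK cell number or of interferon signalling in CXCL9 was not tested.

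**Figure D2:**
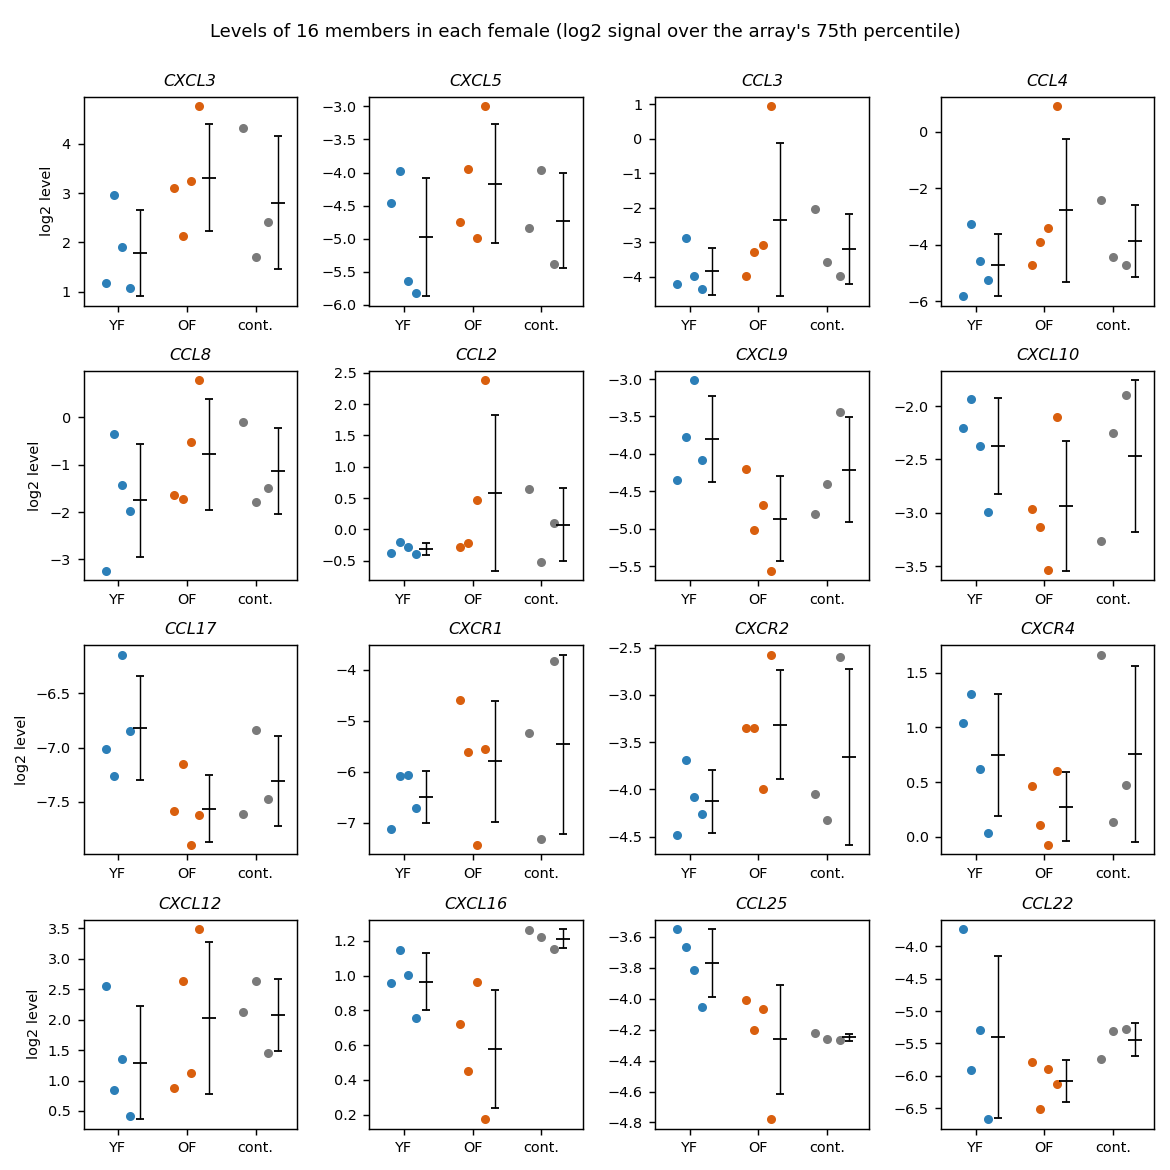
Log2 level (over the 75th percentile of the array) of 16 members in each female, with YF in blue, OF in orange and contemporary cows in grey, and the mean and SD of each group beside the points. CXCL3 and CXCR2 lie higher and CXCL9 lower in OF, each with a single female crossing, while the 3 contemporary cows lie above every YF and OF for CXCL16 alone.

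CCL21 and CCL19, ligands of CCR7 that bring dendritic cells and naive T cells to lymphatic vessels and lymphoid tissue, were dim in most females. The 2 probes of CCL21 start as follows, with the run that both share within these bases in capitals.
CCL21, probe 1: tttccTTTGTAAATATGACTTACACCCAAT
CCL21, probe 2: TTTGTAAATATGACTTACACCCAATtgaat
They share 55 of 60 bases, so their agreement (differences of 4.73 and 3.51) is not independent evidence. The gene lies at chr8:77421389-77422532 (build UMD3.1), next to CCL19 at chr8:77394838-77396746 and CCL27 at chr8:77368244-77368955.

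CCL21 measured -7.83, -8.56, -3.97 and -8.42 in YF 1069, 1070, 1072 and 1127 and -7.61, -1.54, -3.64 and 0.49 in OF 0233, 0234, 0245 and 2258. It was well above background in YF 1072 and in the 3 OF other than 0233. CCL19 was -7.76, -7.13, -5.56 and -8.43 in YF and -6.06, -4.20, -7.78 and -3.79 in OF, and exceeded background in YF 1072 and in the 3 OF other than 0245. OF 2258 and 0234 were highest for both genes, while 0233 and 0245 changed places. The log2 difference was 4.12 for CCL21 (exact permutation p = 0.0571, two-sided) and 1.76 for CCL19 (exact permutation p = 0.2), where the smallest p that 4 against 4 allows is 0.0286. Without OF 2258 these were 2.93 and 1.21, and FCROS called both in every set that left a female out. After normexp with quantile normalization, FCROS kept CCL21 (FC = 7.41) and lost CCL19 (FC = 1.44). CCR7 showed no such pattern, at -6.42 to -5.37 in YF and -6.72 to -5.65 in OF (log2 difference -0.23, SE 0.30, or -0.89 with array weights).

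CCL11, an eosinophil ligand, was highest in the same OF as CCL21 and CCL19. It was -8.29, -7.07, -7.56 and -8.80 in YF and -8.21, -5.41, -7.86 and -4.05 in OF, and OF 0234, OF 2258 and YF 1070 were above background. Only 1 of its probes was ever above background, and the other differed by 0.16. FCROS called CCL11 in 4 of the 8 sets and lost it without OF 2258, OF 0234, YF 1069 or YF 1127. The log2 difference of 1.55 was 0.77 without OF 2258.

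The summed signal of the 11 smooth muscle genes measured was, like these 3 ligands, highest in OF 2258 and 0234. It was 34.1, 24.5, 67.2 and 24.5 in the YF and 25.8, 372, 55.3 and 1058 in the OF, so that OF 2258 and 0234, then YF 1072 and OF 0245, had the highest sums. These were also the 4 of the 8 females in which CCL21 was above background. CCL19 and CCL11 did not follow the sum in this way. In OF 0245 both were below background (-7.78 and -7.86), while CCL19 exceeded it in OF 0233, where the sum was 25.8. All 11 genes were higher on average in OF, with a median log2 difference of 1.96, and 0 passed limma. The lymphatic endothelium list (7 of 8 measured) spanned 3.09 to 9.29 in OF and 3.91 to 14.5 in YF. The sum was mostly PDPN, which epithelium and stroma also express, and which was lowest in OF 2258 (0.82, against 1.92 to 3.84 in the other 7). LYVE1, a lymphatic hyaluronan receptor, ran the other way, at 0.20 in OF 2258, -2.26 in OF 0234 and -5.83 to -3.87 in the other 6 (log2 difference 2.05). The lymphatic regulator PROX1 was also highest in OF 2258 (-4.37) and was above background in 3 OF and 1 YF, and MMRN1 in none. The mean log2 level of the list was -3.61 in OF 2258 and -4.97 to -4.19 in the other 7. The part of muscle or lymphatic tissue in the biopsies in these 3 ligands was not tested.

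**Figure D3:**
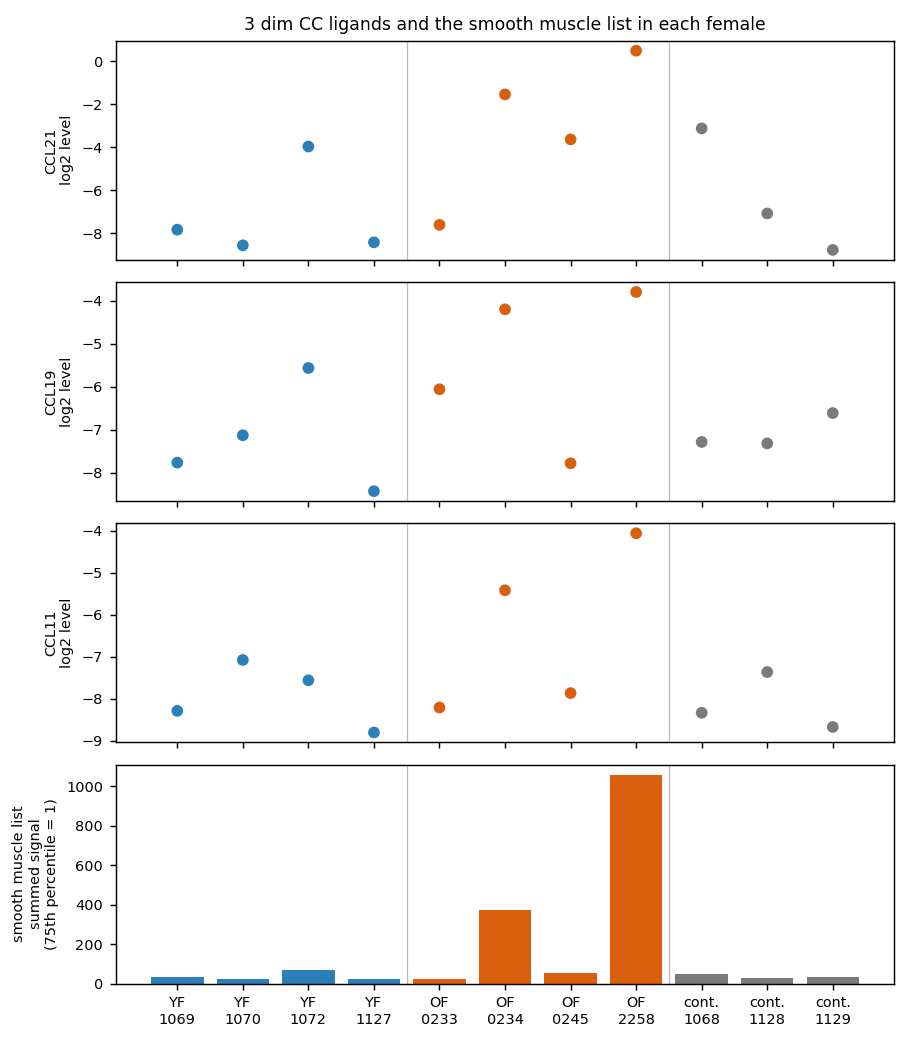
Log2 level of CCL21, CCL19 and CCL11 (upper 3 panels) and the summed signal of 11 smooth muscle genes in units of the 75th percentile of the array (bars) in each female, with YF in blue, OF in orange and contemporary cows in grey. OF 0234 and 2258 are highest for all 3 ligands and for the smooth muscle list (372 and 1058).

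The other homeostatic ligands varied little. CCL25, which draws T cells to mucosa through CCR9, was -3.55, -3.67, -3.82 and -4.06 in YF and -4.01, -4.20, -4.06 and -4.78 in OF. The groups met at YF 1127, and the log2 difference was -0.49 (SE 0.21; adjusted p = 0.999, limma). CCR9 was above background on 1 YF array and on no OF array. CCL28, a mucosal ligand of CCR10, lay between -4.54 and -4.16 in all OF and between -4.51 and -4.20 in all YF, and CCL27 differed by 0.07 (SE 0.26). CCR10 was -4.34 in YF 1072 and between -3.41 and -2.70 in the other 7 females.

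CCL3 and CCL4, ligands released by activated macrophages and lymphocytes, had log2 differences of 1.51 (SE 0.99) and 1.95 (SE 1.17), with adjusted p = 0.999 for both (limma). CCL3 was -4.20, -2.86, -3.98 and -4.34 in YF and -3.97, -3.26, -3.07 and 0.95 in OF, and its probes differed by 2.32 and 0.69 between the groups. For CCL4 the values were -5.82, -3.27, -4.57 and -5.23 in YF and -4.70, -3.91, -3.41 and 0.91 in OF. In both genes OF 2258 stood over 3 units above each of the other 7 OF and YF, and the other OF lay within the range of the YF. Without it the differences were 0.41 and 0.72, and FCROS called neither. Both were also lost without YF 1069, and CCL3 without YF 1127.

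CCL2 and CCL8, which attract monocytes, were also highest in OF 2258 of the 8 OF and YF. CCL2 lay between -0.39 and -0.19 in the 4 YF and was -0.29, -0.22, 0.47 and 2.38 in OF, so that OF 0245 and 2258 lay above every YF. Its difference was 0.34 on the brighter probe and 1.45 on the other. CCL8 was highest in OF 2258 (0.78) and lowest in YF 1069 (-3.24). Their differences of 0.90 (SE 0.54) and 0.98 (SE 0.72) were 0.30 and 0.46 without OF 2258, and neither was called. Of the 11 CC ligands tested outside the homeostatic group, CCL2, CCL3, CCL4 and CCL8 included, 9 were higher in OF and 2 lower. Over all transcripts tested, 51.7% were higher. The median of these ligands was 0.15, against 0.01 over all transcripts. Without OF 2258, 8 of these ligands were higher and 3 lower, with a median of 0.29. In contemporary cows against the same YF, 8 of 11 were higher (45.4% of all transcripts), with a median of 0.16 (-0.02 over all). OF 2258 was the highest of the 8 females in 12 of the 37 members (26.6% of all transcripts tested) and the lowest in 4 (24.7%).

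CCR1, a receptor of monocytes and neutrophils, and CCR2, the receptor of CCL2, differed by 0.10 (SE 0.37) and -0.23 (SE 0.38). CCR2 entered the test only through YF, where it was higher, being above background in 4 YF and 1 OF. Its probes differed by -0.82 and 0.37, the latter on a probe never above background. Of the 6 CC receptors tested, 2 were higher and 4 lower in OF, with a median of -0.09. The macrophage and dendritic cell list (13 of 14 measured) had a summed signal of 4.62 to 5.83 in OF and 4.88 to 6.07 in YF. CCR3 differed by -0.12 (SE 0.20), and CCR8 was above background in YF 1127 and in none of the OF.

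CCL17 and CCL22 share the receptor CCR4, carried by type 2 and regulatory T cells. CCL17 was under-expressed in OF by FCROS (FC = 0.581), at -7.02, -7.26, -6.15 and -6.84 in YF and -7.58, -7.15, -7.90 and -7.62 in OF. OF 0234 and YF 1070 were the females that crossed, and FCROS lost CCL17 without YF 1072, OF 0233 or OF 0245. CCL17 was close to background, exceeding it in 4 YF and 2 OF, and its difference of -0.75 (SE 0.26) was -0.13 after another background correction (normexp) with quantile normalization. CCL22 differed by -0.68 (SE 0.56), with YF 1069 at -3.73 and the other 7 females between -6.67 and -5.30, and its probes by -0.08 and -1.27. CCR4 was above background on 2 YF arrays and no OF array, and no fold is given because the YF mean lay below the lowest signals called above background.

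CCL20, which brings dendritic cells and Th17 cells through CCR6, was above background on 2 YF arrays and on no OF array. It was -7.96, -5.60, -6.86 and -6.84 in YF and -7.29, -7.92, -6.71 and -8.10 in OF. FCROS called it under-expressed (FC = 0.566), and of the 8 sets without 1 female it kept the call in those without YF 1069 or OF 0245 alone. No lower bound above 1 could be given for this fold. For contemporary cows, with 2 of 3 above background, the lower bound of the mean was 1.08-fold over OF. That bound takes no account of the spread between animals. Cow 1068, at -8.13, lay below every OF (exact permutation p = 0.286 for contemporary cows against OF, two-sided). CCR6 was not above background on any array.

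Among the other CXC members, CXCL12, CXCR4 and ACKR3 form an axis in which ACKR3, an atypical receptor, takes CXCL12 up without G protein signalling. CXCL12 was 2.56, 0.85, 1.35 and 0.41 in YF and 0.87, 2.64, 1.12 and 3.49 in OF, a log2 difference of 0.74 (SE 0.67) that was 0.25 without OF 2258. CXCR4 was 1.04, 1.30, 0.62 and 0.03 in YF and 0.47, 0.10, -0.07 and 0.60 in OF, so 3 YF lay above every OF. Its difference was -0.47 (SE 0.29). ACKR3 was highest in OF 2258 (-1.18), and its difference of 0.45 (SE 0.39) was 0.05 without that female.

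CXCL16, a membrane-bound ligand of CXCR6, measured 0.96, 1.15, 1.003 and 0.75 in YF and 0.72, 0.45, 0.96 and 0.17 in OF. The difference was -0.39 (SE 0.19), with OF 0245 within the range of the YF. CXCR6 differed by -0.01 (SE 0.41). CXCL13, the B cell ligand, was above background in YF 1127 alone, and its receptor CXCR5 in OF 0245 alone. CXCL14 and CXCL17 differed by 0.19 (SE 0.50) and -0.14 (SE 0.45).

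CX3CL1 and XCL1 are ligands with receptors of their own on macrophages, NK cells and dendritic cells. CX3CL1 was -5.27 in YF 1069 and between -7.55 and -6.98 in the other 7 females. CX3CR1, its receptor, lay between -1.94 and -1.46 in YF and between -1.76 and -1.38 in OF. XCL1 differed by 0.46 (SE 0.33), and XCR1 was above background in OF 0245 alone. Several CC ligands varied little with group. CCL14, a monocyte ligand found in plasma, lay between 1.34 and 1.95 in all 8 females. CCL5, a T cell ligand, was -1.56 to -0.18 in YF and -1.40 to 0.35 in OF, with a difference of 0.33 (SE 0.45) that was 0.68 without OF 2258, when FCROS called it. CCL1, CCL16 and CCL24 differed by 0.11, 0.03 and 0.15.

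**Figure D4:**
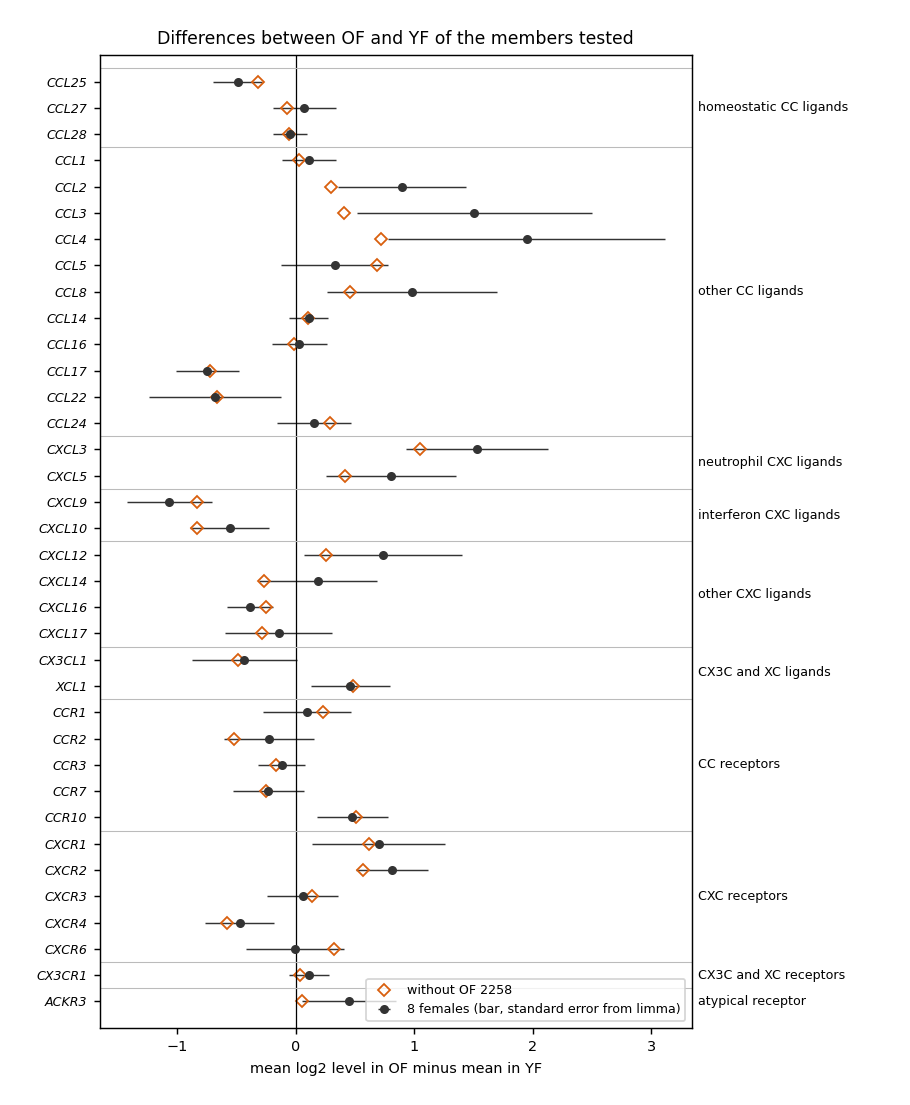
Mean log2 level in OF minus that in YF for 36 of the 37 members tested, by role, with the standard error of limma as bars (points, 8 females) and without OF 2258 (open diamonds). Leaving out OF 2258 brings CCL3 from 1.51 to 0.41 and CCL4 from 1.95 to 0.72, while CXCL3 stays at 1.05 and CXCL9 at -0.83.

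Position grouped the members in a way that their choice did not use. By the array's annotation (build UMD3.1), 12 of them lay on chromosome 19, 10 on chromosome 22 and 7 on chromosome 6. On chromosome 6 the neutrophil ligands, from CXCL8 (chr6:90559882-90563647) to GRO1 (chr6:90822748-90824841), preceded CXCL9, CXCL10 and CXCL11 (from chr6:92600177 to chr6:92646326). CXCL8, CXCL5, CXCL3 and GRO1 had positive OF minus YF differences (0.81 to 1.53), and CXCL9 and CXCL10 negative ones (-1.07 and -0.56). Without OF 2258, CXCL3 and CXCL5 differed by 1.05 and 0.41, and CXCL9 and CXCL10 by -0.83 and -0.84. CXCL8 was -1.05 in OF 2258 and -6.32 to -4.18 in the other OF. CXCL11 and CXCL13, beyond them, were too dim for a sign to be read. The platelet ligand PF4, at -0.32, lay within the first stretch, as did CXCL2 and PPBP, which entered no test. On chromosome 19, CCL4 and CCL3 were neighbours, as were CCL8, CCL11 and CCL2. CCL11 was too dim for a sign to be read. CCL4, CCL3, CCL8 and CCL2 had differences of 0.90 to 1.95, whereas CCL14, CCL16, CCL5 and CCL1 between them had differences of 0.03 to 0.33. This contrast rested on OF 2258: without it CCL2, CCL3, CCL8 and CCL4 ranged from 0.30 to 0.72, and CCL5, at 0.68, exceeded all of them but CCL4. None of the genes on either chromosome passed limma.

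**Figure D5:**
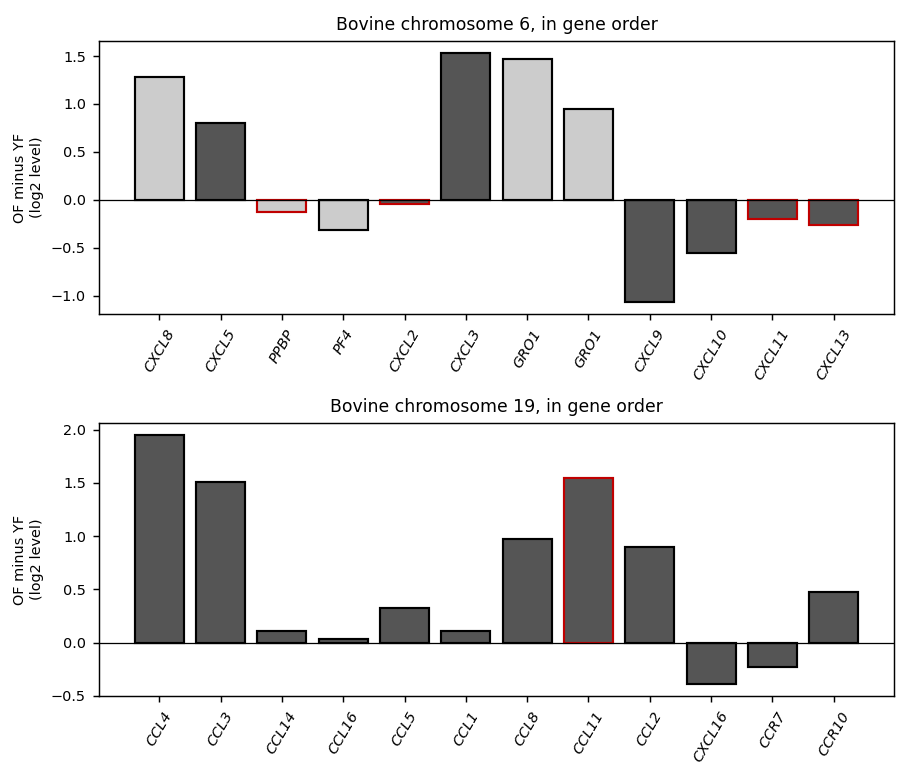
Mean log2 level in OF minus that in YF for the chemokine and receptor genes of bovine chromosomes 6 and 19, in gene order and not to scale. Dark bars are members and light bars are genes listed under older symbols; a red outline marks genes too dim for the limma test. On chromosome 6 the bars from CXCL8 to GRO1 include the values from 0.81 to 1.53, and those of CXCL9 and CXCL10 are -1.07 and -0.56; bars with a red outline rest on dim signals, and their sign is not read.

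Of the atypical and related receptors listed under older symbols, ACKR1 (DARC), which binds many inflammatory chemokines on venules and red cells, was -1.98, -1.70, -1.68 and -1.69 in YF and -0.29, -1.28, -0.82 and -1.60 in OF. Every OF exceeded every YF, narrowly for OF 2258 (log2 difference 0.76, SE 0.27; adjusted p = 0.999, limma; exact permutation p = 0.0286, the smallest possible). CCRL2, which presents chemerin, lay between -1.42 and -1.11 in YF and between -2.39 and -1.65 in OF (difference -0.57, SE 0.19). These 2 genes were named after their values were seen. Scavenging receptors ACKR2 and ACKR4 differed by 0.26 and 0.19.

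A list of chemokine pathway genes held G protein subunits, kinases, arrestins and adaptors, among others. It was not confined to genes downstream of the receptors, since DPP4, MIF, CD74, RARRES2 and CMKLR1 were also on it. Of 48 measured, 45 were tested, 31 higher (68.9%, against 51.7% of all transcripts) and 14 lower in OF, with a median log2 difference of 0.15 (0.01 over all). None passed limma, 3 had an unadjusted p of 0.05 or less (2.42% of all transcripts did), and 2 lay wholly higher in OF (0.931% of all). These 2 were PIK3R5, the regulatory subunit of the PI3K that G protein-coupled receptors activate (-4.08 ± 0.20 for OF against -4.88 ± 0.27 for YF; SD, n = 4 each), and the adaptor BCAR1 (-1.06 ± 0.20 against -1.54 ± 0.18). The excess was not particular to OF. In contemporary cows against the same YF, 30 of the 44 listed genes tested were higher (68.2%, against 45.4% of all transcripts). Their median there was 0.15 (-0.02 over all).

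The contemporary cows shared their arrays' slide with 3 OF and 2 YF, and both comparisons below use the same 3 cows. Against YF, limma called 0 of 38 members and 0% of 19993 transcripts, and 2 members (CCL25 and CX3CR1) had an unadjusted p of 0.05 or less, beside 3.02%. CXCL16 was the member wholly higher (1.51% of all transcripts) and CCL25 the one wholly lower (2.33%) in contemporary cows. Against OF, limma called 0 of 35 members and 0% of 19914 transcripts, with 4 at an unadjusted p of 0.05 or less (CCL16, CCL22, CXCL16 and XCL1), beside 4.57%. CCL16, CCL22 and CXCL16 lay wholly higher in contemporary cows than in OF (2.86% of all transcripts), and 0 members wholly lower (2.93%).

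CXCL16 was 1.26, 1.22 and 1.15 in contemporary cows 1068, 1128 and 1129, above each YF (up to 1.15) and each OF (up to 0.96), with a mean of 1.21 ± 0.06 (SD, n = 3). It exceeded OF by 0.63 and YF by 0.25, and YF 1070 missed it narrowly. CCL25 was -4.22, -4.26 and -4.27 in these cows, below every YF and within the range of OF. Their CCL21 was -3.12, -7.08 and -8.78, above background in cow 1068 alone. CXCL3 was 4.31, 1.71 and 2.41, and CXCL9 was -4.80, -4.40 and -3.44, both within the span of YF and OF together. CX3CR1 was -1.49, -1.24 and -0.67, with an adjusted p of 1.0 against YF and 0.911 against OF (limma). Over the members the median log2 difference was 0.21 against YF and 0.04 against OF, beside -0.02 and -0.04 over all transcripts.

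The share of probes that exceeded background was 71.5% to 74.9% by array. Slide 1 carried 1 OF and 2 YF and slide 2 carried 3 OF and 2 YF. Within slide 1, CCL11 (-0.55), CCL19 (-1.43), CXCL5 (-0.18), CXCR1 (-1.36) and CXCR2 (-0.10) were lower in the OF, against 2.65, 3.41, 1.25, 1.67 and 1.28 within slide 2. CXCL3 differed by 0.81 and 2.21, CXCL9 by -1.29 and -0.72, and CCL21 by 2.63 and 5.24 within slides 1 and 2. Of the 8 endometrial genes measured, PGR, HOXA10 and FOXA2 among them, all were above background on every array.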

How the data were processed

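Total RNA of 12 biopsies was hybridized in 1 colour (Cy-3), 1 array each. The authors deposited scanner output of Agilent Feature Extraction 10.7.3.1, in which each spot has a processed intensity, corrected for background and not normalized between arrays. Here log2 was taken, the array's 75th percentile subtracted, 1319 control spots and 66 probes with outlier flags left out, and probes averaged per transcript. Of the members, 45 matched a RefSeq symbol and 3 were renamed by it (CXCL5, CXCR1 and ACKR3).

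Groups were compared pairwise with limma 3.58.1 in R 4.3.3 on transcripts that exceeded background (a probe marked so by the scanner software) throughout at least 1 of the 2 groups, two-sided, with Benjamini-Hochberg adjustment over all of them. FCROS was coded with a trim of 0.25 and f-values of 0.025 and 0.975. Single members had exact permutation tests. Both methods were tested on simulated data. The replicate is the animal.

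Members, lists and tests were chosen with earlier results of these data known. Members are named that had the 10 largest differences between OF and YF, groups without overlap, an FCROS call, one of the 5 highest ligand or 5 highest receptor signals, or a place in a ligand and receptor pair, with every animal's value for those on which a result turns and a range or difference for the others. Alternatives were quantile normalization, normexp (offset 50), median centring, brightest probe, no dim filter, array weights, a fit of all groups together, a block for slide, cow 1111 included, FCROS without trimming, on limma's transcripts or with a fold change of 2, and each animal left out. Slide 2 alone and genes under older symbols were added after seeing the data. The number of arrays limits the precision. The values of 1 receptor are not reported here, and it stays in the counts.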

Additional observations from a re-analysis of the deposited data

Results flagged for a closer look

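In 74 groups of 4 females checked among the named members, a single female stood far from the other 3 of its group in 3. Chance alone gives about 1 in 20, so these 3 were no more than chance would give. CCL21 in YF 1072 was -3.97 against -8.56 to -7.83 in the other YF. CCL16 in YF 1127 was -3.70 against -2.93 to -2.82. XCR1 in OF 0245 was -6.80 against -8.46 to -8.41.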

How the results depend on the processing

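The count of members called by limma was 0 in all 3 comparisons under each alternative run, leaving out any animal included (0 to 0), with the smallest adjusted p of a member between 0.309 and 1.0 for OF against YF, 0.604 and 1.0 for contemporary cows against YF and 0.126 and 1.0 against OF, lowest with array weights. FCROS called 12 members between OF and YF, 7 with a fold change of 2, and 8 to 14 with 1 female left out. After normexp with quantile normalization it called 7, of which 4 were among the 12 (CCL3, CCL4, CCL21 and CXCL3). The other FCROS counts were 12 with quantile normalization, 13 with the brightest probe, 8 without trimming, 8 on limma's transcripts, 11 on slide 2 and 15 with genes under older symbols. The cause was not tested. Among single members, 13 values moved by more than the spread between animals and 1329 did not, among them CXCL3 (1.53 to 0.36 with array weights), CXCR2 (0.81 to 0.27) and CCL17 (-0.75 to -0.13), both after normexp, and no called difference changed sign. The median of the members, OF minus YF, ranged from -0.02 to 0.22. No paired analysis was possible because no animal number occurs in more than 1 group.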
